A study of Mus musculus and Acomys cahirinus with 84 samples.

Results

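The cultures described here came from the African spiny mouse, Acomys cahirinus, and were sampled 24 h after a dose of 20 Gy of radiation. They were chosen by their labels alone, as the 4 libraries of the 20 Gy group at 24 h and the 4 untreated libraries of the same time, 8 of the 84 libraries in the series. The series compares spiny mice with C56BL6 mice and with mice labelled wild, at 24 h and 12 d, untreated or after 10 or 20 Gy. All cells are labelled primary skin fibroblasts, and no transgene, deletion or drug is named for any group used here. Replicates 1 to 4 carry 4 animal codes in the library names, and each animal gave an untreated, a 10 Gy and a 20 Gy library, so the doses were compared within animals. Age, sex, passage number and radiation source are not given in the sources used here. Poly(A) RNA was sequenced from bulk cultures, in which fewer cells of a type and less RNA per cell cannot be told apart.

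Ionizing radiation breaks both strands of DNA, and the breaks activate the kinase ATM and, through it, the transcription factor p53. p53 raises the transcription of genes that stop the cell cycle, repair DNA or start cell death, and of Mdm2, whose product degrades p53 in return. One p53 target, the kinase inhibitor p21 (gene Cdkn1a), keeps the retinoblastoma family active, and that family with E2F and DREAM complexes holds down genes of DNA replication and mitosis. Cells that stay arrested can become senescent, a state known for loss of lamin B1 and for secretion of cytokines, growth factors and proteases.

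The libraries held 28612709 to 44156327 counts in the untreated group, 31319435 to 46244583 at 10 Gy and 29688598 to 52857478 at 20 Gy. Levels below are CPM (counts per 1e6 counts) after scaling by the trimmed mean of M-values over these 12 libraries, and 3 counts, taken as the detection floor, equal 0.0568 to 0.105 CPM. Fold changes are from edgeR's quasi-likelihood test with animal as a block, with Benjamini-Hochberg adjustment over all genes tested and a threshold of 0.05. A gene is said to rise or fall where it passed that threshold.

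The label was checked against marker genes. All 14 fibroblast markers were detected, and their summed level was 19721 to 26219 CPM in the untreated and 21712 to 31350 CPM in the 20 Gy libraries. Genes of the skeletal muscle lineage were present beside them. Untreated levels were 23.2 to 57.3 CPM for Pax7, the factor of muscle stem cells, and 57.7 to 156 CPM for Myod1 and 167 to 433 CPM for Myog, the factors of muscle commitment and differentiation. The 7 muscle and pericyte markers together stood at 585 to 1496 CPM untreated and 763 to 1669 CPM after 20 Gy. In the C56BL6 and wild libraries at 24 h, a table scaled separately, Pax7, Myf5, Myod1 and Myog were at or near 0. Desmin (Des), which muscle shares with other contractile cells, ranged there from 2.98 to 897 CPM in untreated libraries. Replicate 2 had the lowest levels of Pax7, Myod1, Myog and Des and the highest levels of the fibroblast genes Dcn (977 CPM untreated), Lum (273 CPM) and Pdgfra (76.3 CPM), and it correlated least with the other libraries of its group (mean r across genes of 0.967 and 0.972, against 0.978 to 0.985). The spiny mouse cultures are therefore named below by their label and dose only.

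**Figure D1:**
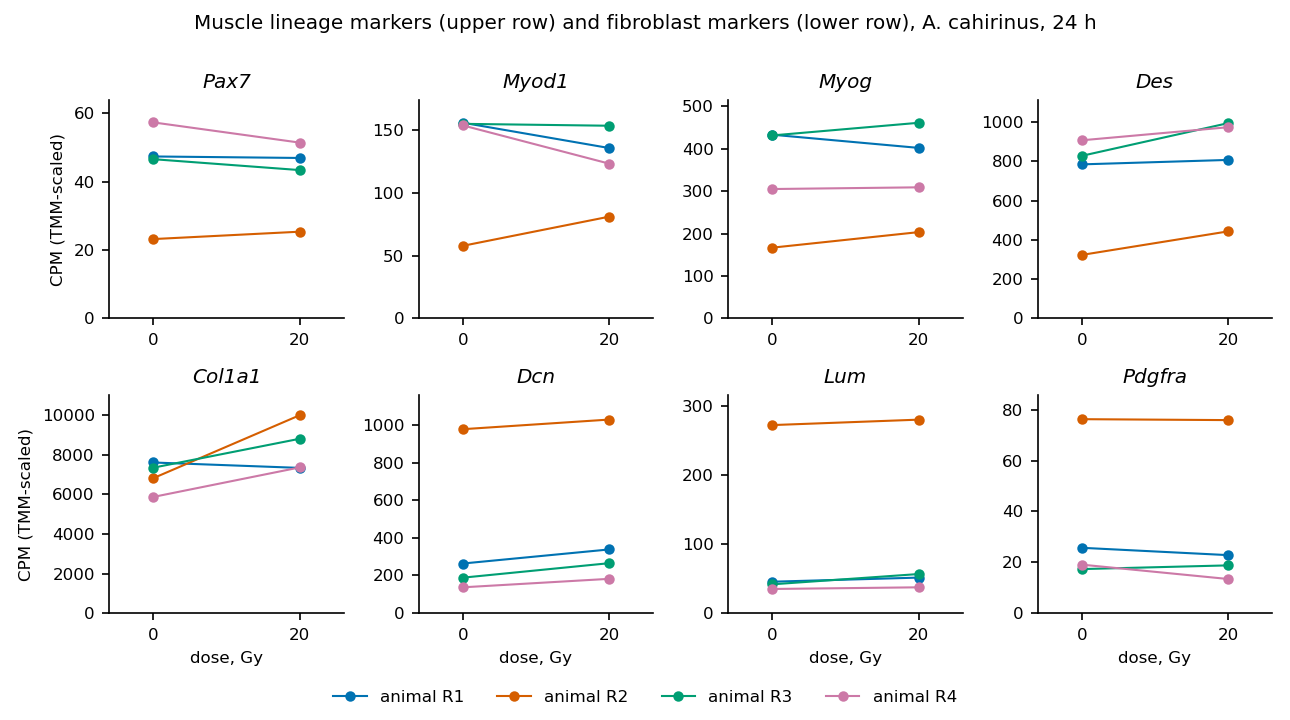
Marker genes in the A. cahirinus libraries: level in CPM (vertical axes, linear from 0) against dose in Gy at 24 h, 1 point per library, lines joining the libraries of 1 animal. Replicate 2 lies apart in Lum (273 and 280 CPM against 35 to 56.6 CPM), and the muscle factors stand well above the floor in all 4 animals.

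Other cell types were low. Keratinocyte markers summed to 5.09 to 15 CPM untreated and 6.11 to 19 CPM after 20 Gy. Of the blood and immune markers, Ptprc did not exceed 0.0644 CPM, Cd3e did not exceed 0.0210 CPM, and the list's sum was 8.82 to 12.1 CPM against 10.9 to 16.7 CPM. Endothelial markers summed to 0.711 to 0.891 CPM untreated and 1.39 to 2.0 CPM after 20 Gy, groups that did not overlap. Sums were 0.917 to 1.53 and 1.23 to 2.58 CPM for melanocyte, 2.45 to 6.03 and 3.16 to 5.53 CPM for Schwann cell, and 3.72 to 12.8 and 4.66 to 12.7 CPM for adipocyte markers. In these lists 4 genes rose, with log2 fold changes of 1.18 for the keratin Krt5, 0.80 for the keratin Krt14, 1.07 for the immune gene Laptm5 and 0.68 for the immune gene Csf1r. None of the 4 passed without the pairing by animal, where edgeR's adjusted p was 0.12 to 0.38, and without replicate 3 or replicate 4 only Laptm5 passed. The part of these low levels in the results below was not tested.

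After 20 Gy, 3170 of 13146 genes tested (24.1%) passed the threshold, 1748 of them higher (13.3%) and 1422 lower (10.8%). Most changes were small. The median log2 fold change was 0.37 among the genes that rose and -0.36 among those that fell, beside 0.03 over all genes tested. At 2-fold or more, 100 genes rose and 211 fell (311 genes, 2.37%). The levels of the 4 untreated and the 4 irradiated libraries did not overlap for 1657 genes (12.6%), 628 of them with higher (4.78%) and 1029 with lower levels after 20 Gy (7.83%). These counts and their balance rest on the pairing and on single animals. Of the genes called, 55.1% were higher, against 49.4%, 46.9% and 43.4% without replicates 2, 3 and 4 and 24.8% without the animal block. Without the animal block 472 genes passed (3.59%), 117 higher (0.89%) and 355 lower (2.7%), all of them among the 3170. Leaving out replicate 3 gave 1356 genes and leaving out replicate 4 gave 1316. Leaving out replicate 1 gave 3507, and leaving out replicate 2, the animal that stands apart, gave 3925.

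Inpp5d, Eda2r and Lgals3bp led the genes that rose. The 15 genes with the largest rise among those at 5 CPM or more and moving one way in all 4 pairs rose by 1.05 to 2.88 on the log2 scale. All 15 also rose at 10 Gy and passed in each fit that left out 1 animal, 11 passed without the block, and the groups did not overlap for 11. The genes were chosen from this fit. The 10 Gy fit shares its untreated libraries and the other fits reuse its libraries, so these counts give no independent support.

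Inpp5d, which encodes the inositol phosphatase SHIP1 (AcoCah2 assembly, scaffold 2, 21903794 to 22016944, minus strand), rose most. Its level was 2.60, 2.49, 1.55 and 1.37 CPM in untreated replicates 1 to 4 and 14.3, 14.1, 13.2 and 14.7 CPM after 20 Gy. Every irradiated library was above every untreated one, and the irradiated values spanned a narrower relative range than the untreated ones (log2 fold change 2.88 ± 0.159 (SE, n = 4 pairs), adjusted p = 2.08e-06). Eda2r, a member of the TNF receptor family and a p53 target (scaffold 11, 47964054 to 48007013, minus strand), stood at 9.53, 13.4, 7.86 and 5.35 CPM untreated and at 46.9, 38.4, 38 and 35.2 CPM after 20 Gy. The groups were again apart (2.21 ± 0.157, adjusted p = 7.33e-06).

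Lgals3bp, which encodes a secreted glycoprotein that binds galectin-3, stood at 16.9, 20.1, 10.5 and 6.61 CPM untreated and at 56, 57.1, 46.4 and 39.6 CPM after 20 Gy. All 4 animals rose, replicate 4 from the lowest start (2.0 ± 0.147, adjusted p = 9.91e-06). Cyclin G1 (Ccng1), a p53 target that acts with Mdm2, went from 145, 200, 128 and 104 CPM to 421, 436, 357 and 349 CPM (1.49 ± 0.0878, adjusted p = 2.85e-06). Cdkn1a was already abundant without radiation, at 384, 281, 360 and 269 CPM, and reached 755, 789, 810 and 792 CPM. Its irradiated libraries lay within a narrow band well above all untreated libraries (1.32 ± 0.0880, adjusted p = 5.31e-06, 2.49-fold).

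The remaining large rises included further p53 targets. Aen, a nuclease of p53-dependent cell death, rose from 27.7 to 29.9 CPM to 59.4 to 70.2 CPM (1.17), and Trp53inp1, a stress protein that acts on p53, from 21.2 to 22.7 CPM to 47.6 to 58.8 CPM (1.25). Inka2, an inhibitor of the kinase PAK4, rose by 1.46, and Sytl1, a Rab27 effector of vesicle transport, by 1.46. Netrin 1 (Ntn1), a secreted guidance protein, rose by 1.39 and Abhd8 by 1.07. Ddit4l, Kcnf1, Ccl2 and Ccl7 rose by 1.18, 1.05, 1.18 and 1.13 within animals, but their groups overlapped and none of these 4 passed without the block (adjusted p = 0.156 to 0.535).

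**Figure D2:**
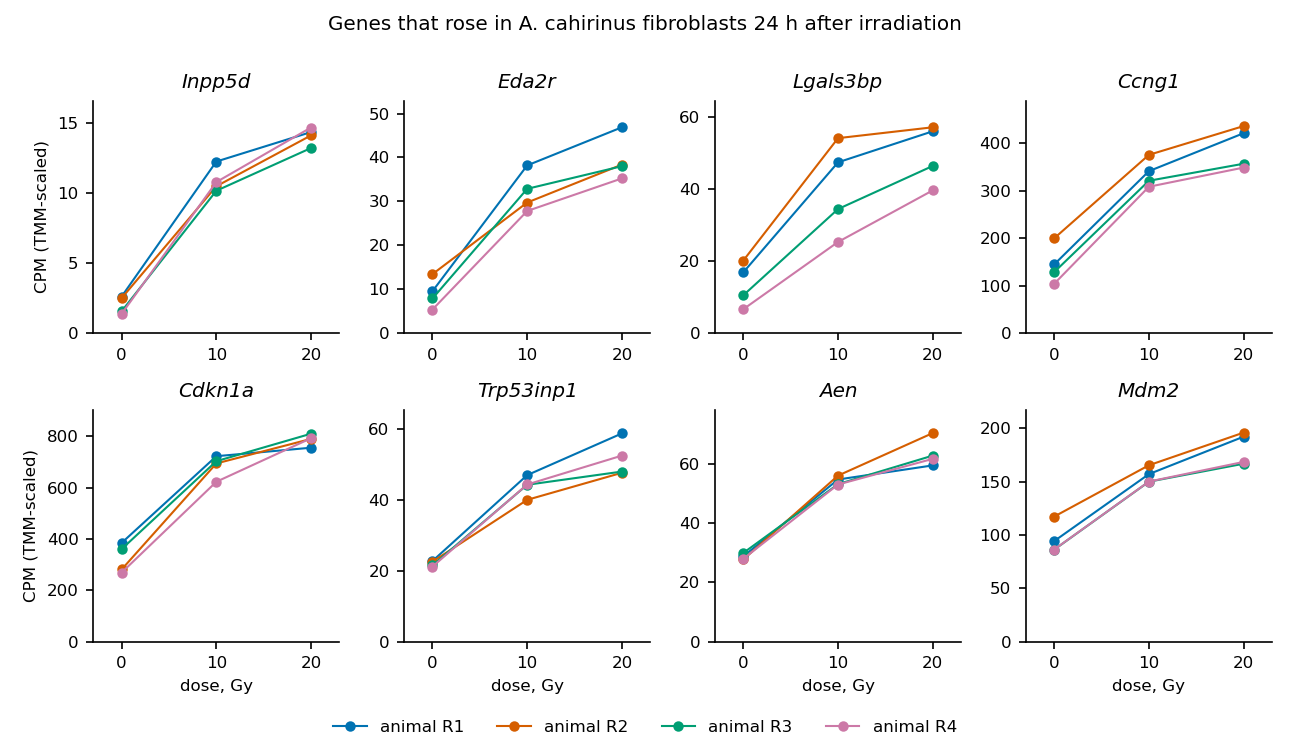
Level in CPM (vertical axes, linear from 0) of genes that rose, against dose in Gy at 24 h, 1 point per library and lines joining the libraries of 1 animal. Inpp5d goes from 1.37 to 2.60 CPM untreated to 13.2 to 14.7 CPM at 20 Gy, and Cdkn1a from 269 to 384 CPM to 755 to 810 CPM.

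Upstream sequence was taken for the 2 largest rises with an entry in the promoter table, to show what precedes genes that moved together. It is house mouse RefSeq sequence of build GRCm38.p6, the 250 bases before the transcript start, since spiny mouse sequence was not used here. Capitals mark a CCAAT box (CCAAT or ATTGG). The Inpp5d window is chr1:87620062-87620311 on the plus strand and the Eda2r window chrX:97377210-97377459 on the minus strand, and both are written 5′ to 3′ along the gene.
Inpp5d: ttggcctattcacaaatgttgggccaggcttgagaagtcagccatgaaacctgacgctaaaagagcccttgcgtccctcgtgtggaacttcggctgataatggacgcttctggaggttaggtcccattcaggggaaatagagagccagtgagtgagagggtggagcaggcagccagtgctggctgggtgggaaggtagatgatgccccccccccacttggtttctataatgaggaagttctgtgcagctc
Eda2r: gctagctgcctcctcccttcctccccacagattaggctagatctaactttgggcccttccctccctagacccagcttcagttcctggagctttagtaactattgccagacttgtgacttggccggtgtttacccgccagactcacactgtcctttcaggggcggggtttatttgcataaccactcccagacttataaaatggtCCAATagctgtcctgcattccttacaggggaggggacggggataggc
No p53 response element in its 10-base form, searched on both strands, was in either window. That element was in 7.13% of 32851 house mouse promoters of this length. The Eda2r window held 1 CCAAT box, 47 to 43 bases before the start, and a CCAAT box was in 33.8% of all promoters.

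More of the known p53 targets rose than fell. Of 23 tested genes of p53 feedback and arrest, 12 rose (52.2%, against 13.3% of all genes) and 2 fell (8.7%, against 10.8%). Their median log2 fold change was 0.33. Mdm2, the ubiquitin ligase that degrades p53, was 94.3, 117, 86.3 and 86.4 CPM untreated and 192, 196, 167 and 169 CPM after 20 Gy, so the groups were apart (0.94 ± 0.0617, adjusted p = 4.81e-06). Zmat3, an RNA-binding protein, rose by 1.01, Phlda3, an inhibitor of AKT, by 0.75 and Btg2, an antiproliferative factor, by 0.74. The largest fitted rise of the list, 1.71 for the arrest protein Sfn, concerned a level of 0.132 to 0.382 CPM untreated and 0.451 to 0.984 CPM irradiated, near the floor, and it was lost without replicate 4 (adjusted p = 0.0629). Gtse1, a cell cycle protein that binds p53, fell by 0.76 on the log2 scale, from 23.7 to 35.8 CPM to 14.8 to 22.3 CPM.

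Among 17 tested p53 targets of cell death, 10 rose (58.8%, against 13.3% of all genes) and 1 fell (median 0.35). Beside Eda2r and Aen these included the death receptor Fas (0.84), the BH3-only gene Bbc3 (0.53), Pidd1, an adaptor that activates caspase-2 (0.52), and the pore former Bax (0.45). Bbc3 lost its call without replicate 3 (adjusted p = 0.125), without replicate 4 (0.0845) and without the block (0.229). Fas (0.0825) and Bax (0.0763) also did not pass without the block. Siva1, a proapoptotic adaptor, fell, from 9.89 to 19.1 CPM untreated to 4.85 to 9.58 CPM (-0.88 ± 0.111, adjusted p = 0.000384, or 0.119 without the block). Of 22 tested p53 targets of metabolism and repair, 8 rose (36.4%) and 2 fell (9.09%, against 10.8% of all genes). Their median was 0.25, with 4 rises without replicate 3 and 3 without replicate 4. The translesion polymerases moved in opposite directions. Polk rose from 10.2 to 14.9 CPM to 18.5 to 25.8 CPM (0.92), and Polh fell from 54.6 to 65.1 CPM to 32.5 to 37.8 CPM (-0.73). Apobec1, an RNA-editing enzyme, was at 0 to 0.102 CPM untreated, at or under the floor, and at 0.252 to 0.558 CPM after 20 Gy. Without the block, 8, 5 and 3 genes of these 3 lists rose.

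Genes of cell division fell together. Of 100 tested genes of mitosis, kinetochore and cohesion, 99 fell and 0 rose, with a median of -1.46 and no overlap of the groups for 93. Over all genes tested 10.8% fell, 13.3% rose and 12.6% had groups that did not overlap. The exception was Pttg1, securin, at 8.08 to 14.4 CPM untreated and 7.45 to 13.7 CPM irradiated (-0.20, adjusted p = 0.161). The summed level of the list was 6179 to 7766 CPM untreated and 2096 to 3729 CPM after 20 Gy. Without the block 85 of the 100 fell, and at least 97 fell without any 1 animal.

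Fbxo5, which encodes EMI1, an inhibitor of the anaphase-promoting complex, fell most of all named genes (scaffold 10, 74674809 to 74682362, plus strand). Untreated levels were 14.8, 13.8, 18.5 and 22.8 CPM, and levels after 20 Gy were 1.91, 2.02, 3.48 and 4.57 CPM. The order of the animals was nearly kept, with replicate 4 highest and replicates 1 and 2 lowest at both doses (-2.55 ± 0.119, adjusted p = 1.01e-06, 5.85-fold lower). Cyclin A2 (Ccna2), the cyclin of S phase and mitotic entry, went from 90.1, 82, 103 and 127 CPM to 15.6, 12.4, 22.4 and 31.1 CPM (-2.34 ± 0.107, adjusted p = 9.62e-07). Here too replicate 4 was highest in both groups and replicate 2 lowest, and the groups were far apart. The proliferation marker Mki67 stood at 280, 285, 319 and 279 CPM and then at 67.3, 50, 84.1 and 95.4 CPM (-1.98 ± 0.124, adjusted p = 3.73e-06).

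The 15 genes with the largest fall were likewise chosen from this fit, and the other fits reuse its libraries, so their calls there give no independent support. All 15 had log2 fold changes of -2.55 to -2.05, did not overlap between groups, passed without the block and in each fit without 1 animal, and fell at 10 Gy. Beside Fbxo5 and Ccna2 they included Esco2, the cohesin acetyltransferase (-2.36), Hjurp, the chaperone of centromeric histone (-2.28), the mitotic kinases Plk1 (-2.19) and Aurkb (-2.07), Ccnb2, a mitotic cyclin (-2.08), and the spindle motors Kif11 (-2.08) and Kif23 (-2.05). Top2a, the topoisomerase that untangles sister chromatids, fell less, from 232 to 302 CPM to 50 to 117 CPM (-1.62 ± 0.120, adjusted p = 1e-05).

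**Figure D3:**
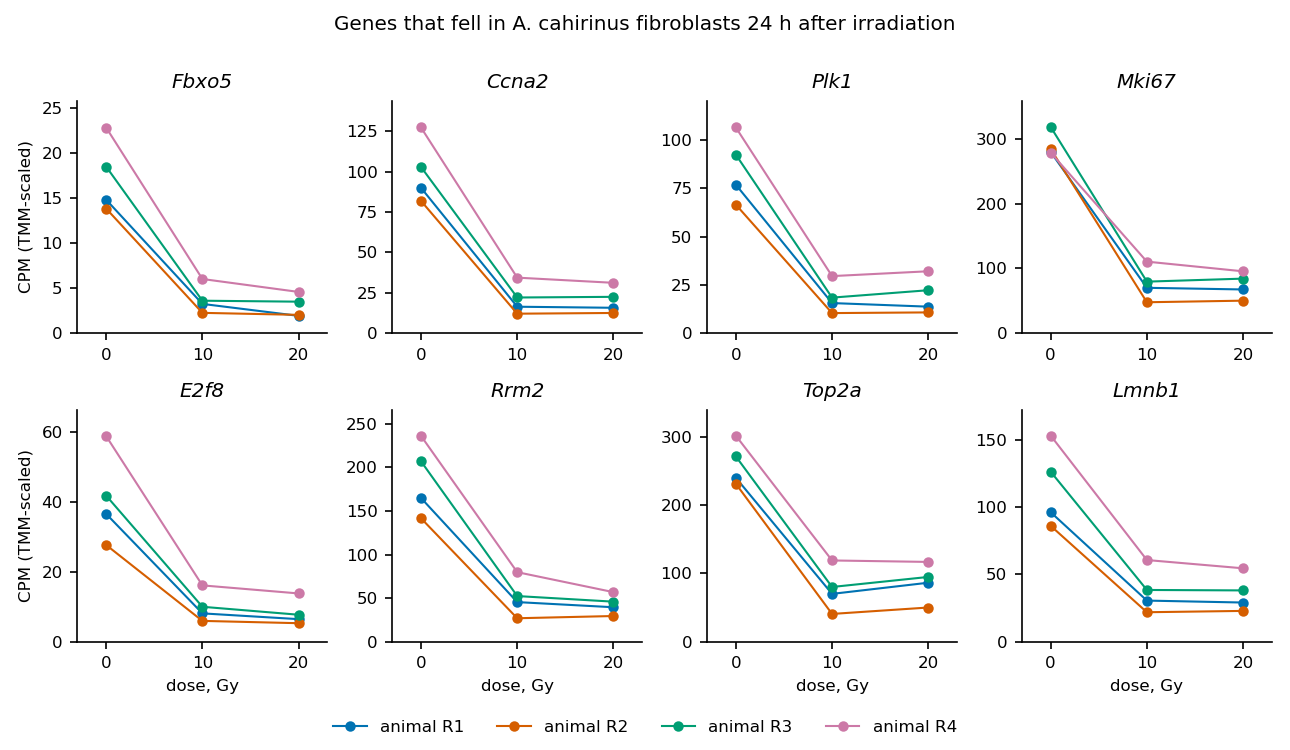
Level in CPM (vertical axes, linear from 0) of genes that fell, against dose in Gy at 24 h, 1 point per library and lines joining the libraries of 1 animal. Fbxo5 goes from 13.8 to 22.8 CPM untreated to 1.91 to 4.57 CPM at 20 Gy, with the 10 Gy libraries close to those at 20 Gy.

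Replication genes fell as well. Of 54 tested genes of DNA replication and nucleotide supply, 50 fell and 0 rose, with a median of -0.97, and the groups did not overlap for 46. The 4 that did not pass were Dck, Orc2, Pold2 and Rfc3. Over all genes tested 10.8% fell, 13.3% rose and 12.6% had groups that did not overlap. Without the block 36 of the 54 fell. Rrm2, the regulated subunit of ribonucleotide reductase, stood at 165, 142, 207 and 236 CPM untreated and at 39.4, 29.4, 45.9 and 56.8 CPM after 20 Gy. Each animal kept its rank (-2.12 ± 0.0600, adjusted p = 1.01e-07). Cdc6, which loads the replicative helicase, fell from 12 to 23.3 CPM to 2.92 to 6.68 CPM (-2.03).

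The regulators above these genes changed as well. Of 20 tested genes of the E2F, retinoblastoma, FOXM1 and MYBL2 group, 14 fell and 1 rose. These were 70% and 5% of the group, against 10.8% and 13.3% of all genes. The repressor E2f8, itself an E2F target, was 36.5, 27.6, 41.8 and 58.8 CPM untreated and 6.42, 5.26, 7.68 and 13.8 CPM irradiated. Replicate 2 was lowest and replicate 4 highest in both groups (-2.33 ± 0.0851, adjusted p = 4.33e-07). Foxm1, an activator of mitotic genes, fell from 65.5 to 91.7 CPM to 16 to 29 CPM (-1.83). The gene that rose was Rbl2, which encodes p130, the retinoblastoma relative of the DREAM complex. It stood at 28.4, 35, 29 and 31.1 CPM and then at 51.6, 49.2, 47.3 and 47.9 CPM, with no overlap (0.69 ± 0.0734, adjusted p = 0.000124).

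Upstream windows of the 2 largest falls with a table entry are shown for comparison with those above. Capitals mark a CCAAT box (ATTGG on this strand) or a cell cycle genes homology region, CHR (TTTGAA or TTTAAA on either strand, here TTCAAA), an element known from mitotic promoters. The Fbxo5 window is chr10:5805466-5805715 and the E2f8 window chr7:48881597-48881846, both on the minus strand of house mouse GRCm38.p6 from RefSeq.
Fbxo5: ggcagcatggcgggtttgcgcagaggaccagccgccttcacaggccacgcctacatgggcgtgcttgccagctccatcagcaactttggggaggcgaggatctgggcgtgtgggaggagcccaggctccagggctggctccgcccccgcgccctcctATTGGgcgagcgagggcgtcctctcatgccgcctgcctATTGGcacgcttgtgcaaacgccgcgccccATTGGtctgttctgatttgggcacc
E2f8: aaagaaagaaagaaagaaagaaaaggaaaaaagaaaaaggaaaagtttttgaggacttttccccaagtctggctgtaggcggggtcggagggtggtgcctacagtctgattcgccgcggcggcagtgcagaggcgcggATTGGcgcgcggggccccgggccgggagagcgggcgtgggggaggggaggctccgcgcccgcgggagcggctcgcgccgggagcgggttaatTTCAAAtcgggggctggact
Fbxo5 held 3 CCAAT boxes, 93 to 89, 55 to 51 and 25 to 21 bases before the start. In E2f8 there was 1 CCAAT box, whose first base was 112 bases before the start, and 1 CHR, 20 to 15 bases before the start. A CHR pattern was in 25.2% of all promoters of this length, and neither window held the p53 element.

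Cyclins and their inhibitors moved in both directions. Of 19 tested genes 10 fell (52.6%, against 10.8% of all genes) and 3 rose (15.8%, against 13.3%). Those that rose were the D cyclins of early G1, by 0.36 for Ccnd1, 0.36 for Ccnd2 and 0.24 for Ccnd3, and none of them passed without the block. Cyclin F (Ccnf) fell by 1.91 on the log2 scale and the phosphatase gene Cdkn3 by 1.24. Cdkn2a, which encodes p16 and ARF and is a marker of senescence, did not pass. Its level was 29.3, 33.8, 24.9 and 25.2 CPM untreated and 25.3, 48.2, 25.3 and 27.7 CPM after 20 Gy. Replicate 2 alone stood high after radiation (0.14 ± 0.101, adjusted p = 0.335).

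Genes of recombination, ATM signalling and end joining fell or did not pass. In homologous recombination and the Fanconi pathway, 23 of 33 tested genes fell (69.7%, against 10.8% of all genes) and 0 rose (median -0.76). Hrob, which acts with a helicase in recombination, fell by 1.66 and the nuclease gene Exo1 by 1.63. Of 34 tested genes of ATM signalling and end joining, 13 fell (38.2%, against 10.8% of all genes) and 0 rose (against 13.3%). Their median was -0.18, and 8 fell without replicate 3. The polymerase of alternative end joining, Polq, fell from 10.1 to 11.2 CPM to 2.64 to 4.70 CPM (-1.63), and the checkpoint kinase gene Chek1 from 16.7 to 26.1 CPM to 6.25 to 10.9 CPM (-1.18).

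Genes of nuclear structure fell too. Of 19 tested genes of lamins, nuclear envelope and HMGB proteins, 14 fell (73.7%, against 10.8% of all genes). The 1 that rose (5.26%, against 13.3%) was Syne1 (0.22, adjusted p = 0.101 without replicate 3 and 0.146 without replicate 4). Lmnb1, lamin B1, stood at 96.1, 86, 126 and 153 CPM untreated and at 29, 22.8, 38 and 54.4 CPM irradiated. Its groups did not overlap (-1.69 ± 0.0735, adjusted p = 8.36e-07). Hmgb2, a chromatin protein, fell by 1.76 on the log2 scale. Most histone mRNAs lack a poly(A) tail, and of 80 histone genes by name 12 passed the expression filter. Of these 4 fell (33.3%, against 10.8% of all genes), led by H1f10 (-1.27) and H2az2 (-0.81). Without the block the falls numbered 8 in the E2F group, 5 among cyclins and their inhibitors, 15 in recombination, 5 in ATM signalling and end joining, 7 in nuclear structure and 1 among histones.

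**Figure D4:**
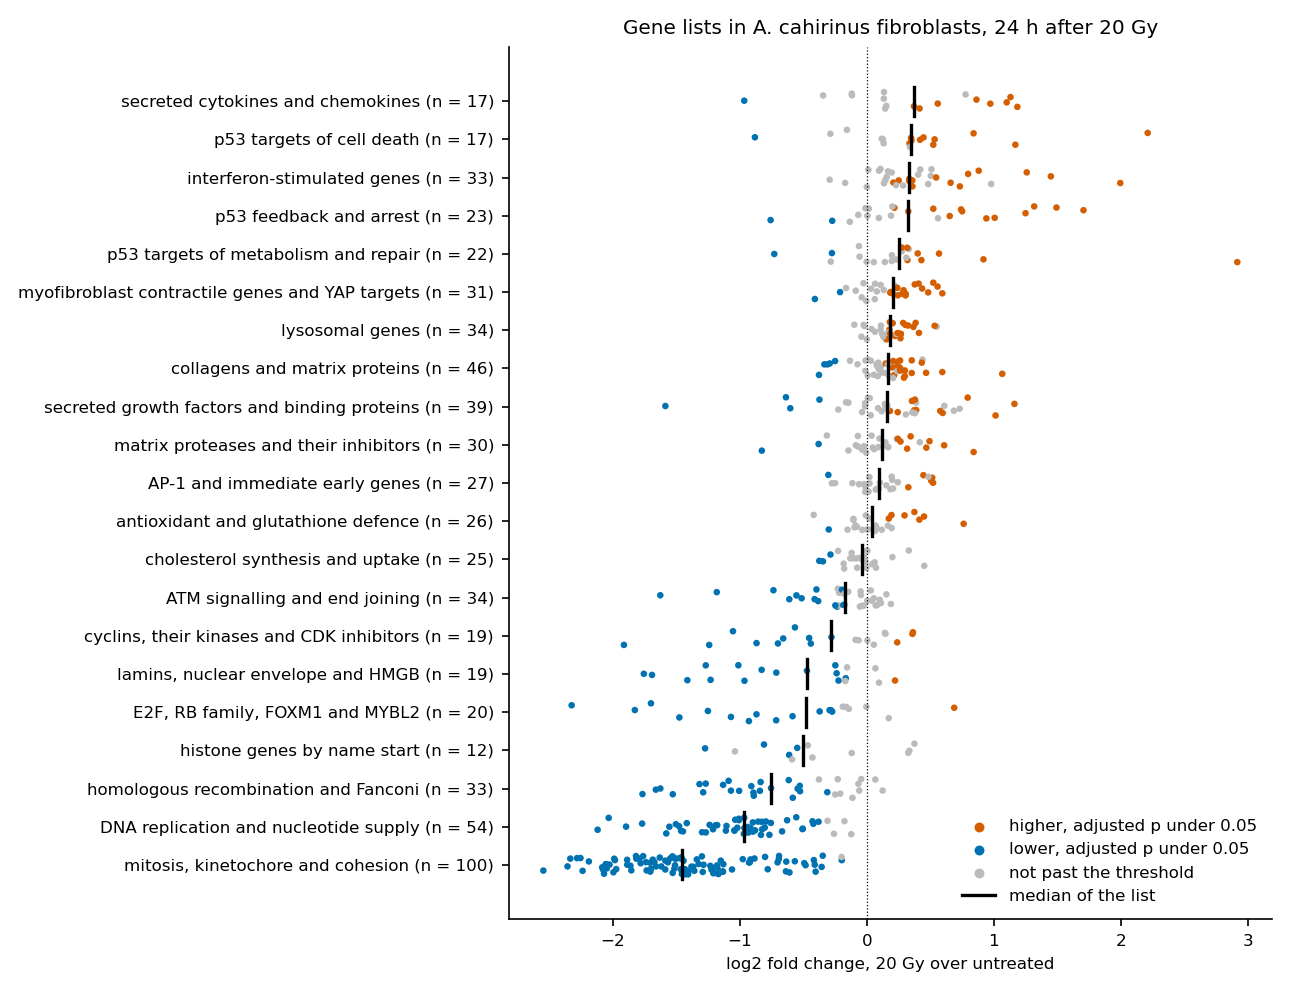
Log2 fold change at 20 Gy against untreated (horizontal axis) of each tested gene in each list (rows), 1 point per gene, with the list's median marked. Points of mitosis and replication lie to the left of 0 (medians -1.46 and -0.97) and those of the p53 lists mostly to the right (medians 0.25 to 0.35).

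Genes of secreted cytokines and chemokines rose in part, and senescence itself was not measured. Of 29 cytokine and chemokine genes 17 were expressed enough to be tested. Of these 8 rose (47.1%, against 13.3% of all genes) and 1 fell (5.88%, against 10.8%), with a median of 0.37. None of the 9 passed without the block. Il6, an inflammatory cytokine, was low throughout, at 1.95, 4.05, 0.916 and 1.85 CPM untreated and 4.75, 5.84, 3.32 and 3.58 CPM after 20 Gy. It was higher in all 4 pairs, but the untreated library of replicate 2 lay above the irradiated libraries of replicates 3 and 4 (1.10 ± 0.193, adjusted p = 0.00295, or 0.245 without the block). Ccl2, a monocyte attractant, stood at 34.8, 76, 24.5 and 26.7 CPM and then at 81.1, 117, 63.3 and 74.4 CPM. Replicate 2 was highest in both groups (1.18 ± 0.123, adjusted p = 0.000104, or 0.178 without the block). Cxcl2, a neutrophil attractant, fell from 0.509 to 1.39 CPM to 0.168 to 0.708 CPM (-0.97), and lost its call without replicate 3 or replicate 4. Il1b was at 0 in all 8 libraries, and Cxcl10 at 0 untreated and at most 0.0186 CPM irradiated.

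Among 39 tested growth factors and their binding proteins, 11 rose (28.2%, against 13.3% of all genes) and 4 fell (10.3%, against 10.8%). Their median was 0.16, with 7 rises without replicate 3, 7 without replicate 4 and 2 without the block. Areg, a ligand of the EGF receptor, rose from 1.56 to 2.06 CPM to 3.09 to 4.51 CPM (1.01), and Pgf, a ligand of a VEGF receptor, rose by 1.16 from levels of 1.02 to 2.66 CPM. Igfbp3, which binds insulin-like growth factors, fell most. It was 63, 31.1, 93.9 and 213 CPM untreated and 21.1, 18.1, 27.2 and 47.2 CPM irradiated, and the irradiated library of replicate 4 lay above the untreated one of replicate 2 (-1.59 ± 0.172, adjusted p = 0.00014, or 0.135 without the block). Gdf15, a stress cytokine and p53 target, did not pass at 20 Gy. Its level was lower in replicate 1, at 8.49 and then 5.98 CPM, and higher in the other 3 pairs, from 5.12, 6.64 and 5.48 CPM to 14.9, 8.56 and 10.2 CPM (0.61 ± 0.246, adjusted p = 0.0992). At 10 Gy its value was 0.54 (adjusted p = 0.00897).

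Of 30 tested matrix proteases and inhibitors 8 rose (26.7%, against 13.3% of all genes) and 2 fell (6.67%, against 10.8%), with 4 rises without replicate 3, 4 without replicate 4 and 0 without the block. Mmp23, a membrane metalloprotease, rose from 6.08 to 12.8 CPM to 12.2 to 23.4 CPM in groups that overlapped (0.84, adjusted p = 0.15 without the block), and Adamts1, a protease of proteoglycans, fell from 48.3 to 77.8 CPM to 31.7 to 37.7 CPM (-0.83). Among 33 tested interferon-stimulated genes (13 of 46 in the table were too low), 14 rose (42.4%, against 13.3%) and 0 fell (median 0.33). The rises numbered 4 without replicate 3, 4 without replicate 4, 9 in DESeq2 and 3 without the block. After Lgals3bp came Irf7, a transcription factor of the interferon response, from 0.356 to 0.636 CPM to 1.24 to 1.64 CPM (1.45), and Isg20, an exonuclease (1.26). Ifit1, Ifit2 and Ifit3 were too low to be tested.

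Small rises were counted in matrix, contractile and lysosomal genes, and they depended on single animals. Of 46 tested collagens and matrix proteins 20 rose (43.5%, against 13.3% of all genes) and 5 fell (10.9%, against 10.8%). Their median was 0.17, with 7 rises without replicate 3, 5 without replicate 4 and 0 without the block. Col7a1, the collagen of anchoring fibrils, rose most, from 2.27 to 3.73 CPM to 3.99 to 9.70 CPM (1.07), and versican (Vcan) fell most (-0.38). Of 31 contractile genes and YAP targets 17 rose (54.8%) and 2 fell (6.45%). Their median was 0.20, with 6 rises without replicate 3, 5 without replicate 4 and 0 without the block. Cnn1, calponin of smooth muscle and myofibroblasts, rose from 117 to 209 CPM to 210 to 279 CPM (0.56). Skeletal muscle shares several genes of that list, and Des, the muscle marker in it, rose by 0.23 (adjusted p = 0.0325, or 0.0724, 0.179 and 0.0957 without replicates 2, 3 and 4); the part of muscle-lineage cells in this count was not tested. Of 34 tested lysosomal genes 18 rose (52.9%) and 0 fell (median 0.18), with 6 without replicate 3, 5 without replicate 4 and 3 without the block. Naglu and Smpd1, both lysosomal hydrolases, rose most among those named by rule (0.53 and 0.41).

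In other stress programmes the list medians were small (0.04, -0.04 and 0.09, beside 0.03 over all genes). In antioxidant and glutathione defence 7 of 26 tested genes rose and 1 fell (median 0.04), with 3 rises without replicate 4 and 1 rise and 0 falls without the block. Nqo1, a quinone reductase, rose from 2.06 to 3.35 CPM to 4.22 to 4.99 CPM (0.76, adjusted p = 0.0595 without the block). Of 25 genes of cholesterol synthesis and uptake 0 rose and 3 fell, with 1 fall without replicate 3 and 0 without the block. Insig1, which restrains sterol synthesis, was among the 3 and fell by 0.37 on the log2 scale (adjusted p = 0.0658 without replicate 3 and 0.382 without the block). Among 27 AP-1 and immediate early genes 5 rose and 1, Myc, fell (-0.30), and without the block 1 rose and 0 fell. Myc lost its call without replicate 3 (adjusted p = 0.0611), without replicate 4 (0.0671) and without the block (0.199). Dusp4 and Dusp5, phosphatases that act on MAP kinases, rose by 0.51 and 0.52, and Dusp5 did not pass without the block (adjusted p = 0.179). Shares that rose and fell were 26.9% and 3.85% for antioxidant, 0% and 12.0% for cholesterol and 18.5% and 3.7% for AP-1 genes. Over all genes they were 13.3% and 10.8%.

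At 10 Gy the same animals gave 3615 of 13083 genes past the threshold (27.6%), 1993 higher (15.2%) and 1622 lower (12.4%). Without replicate 3 it was 2156 genes and without replicate 4 it was 1985. That comparison uses the same untreated libraries, so the 2 doses are set side by side. For mitosis 100 genes fell at 10 Gy and 99 at 20 Gy, with medians of -1.61 and -1.46. For replication it was 53 and 50 genes, with medians of -1.01 and -0.97, and for p53 feedback and arrest 11 and 12 rises, with medians of 0.26 and 0.33.

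The direct comparison of 20 Gy with 10 Gy needs no untreated library. It gave 40 of 13242 genes (0.302%), 36 higher (0.272%) and 4 lower (0.0302%) at 20 Gy, each in the same direction in all 4 pairs. Of the 40, 12 had risen at both doses and stood higher at 20 Gy. Inpp5d was 12.2, 10.5, 10.2 and 10.8 CPM at 10 Gy, below its 20 Gy level in each animal (0.38 ± 0.0665, adjusted p = 0.0111). Eda2r (0.31), Lgals3bp (0.34), Ccng1 (0.21), Mdm2 (0.22), Aen (0.23), Trp53inp1 (0.23) and Cdkn1a (0.20) were among the 12. A further 21 had fallen at both doses but less at 20 Gy. Cyclin B1 (Ccnb1) was 35, 23.5, 39.8 and 59.3 CPM at 10 Gy and 44.4, 29.4, 54.9 and 80.5 CPM at 20 Gy, higher in every animal (0.40 ± 0.0448, adjusted p = 0.000153). Others of this kind were Ube2c, a ubiquitin-conjugating enzyme of mitotic exit (0.40), the kinase genes Nek2 (0.36) and Cdk1 (0.25), and the kinetochore motor Cenpe (0.28). Lower at 20 Gy were Igfbp5 (-0.32), the mitochondrial gene ND4 (-0.26), tenascin C (Tnc, -0.24) and the cohesin subunit Stag1 (-0.21). Ube2c, Nek2, Cdk1, Cenpe, Ccnb1 and these 4 were named after their values were seen. The dose difference depends on pairing and animals. No gene passed without the block (0 in edgeR, with 55 at an unadjusted p under 0.05) or with all 3 groups in one fit (0, with 443), 28 passed in DESeq2 and 92 with no expression filter, and 66, 6 and 7 passed without replicates 1, 2 and 3.

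Responses were then compared between populations by an interaction term, which sets the change in A. cahirinus against the change in 4 C56BL6 or 4 wild animals treated alike. Levels were not compared, since the tables were counted on different genomes. The change differed from that in C56BL6 for 2277 of 13590 shared genes (16.8%), 1182 with a higher (8.7%) and 1095 with a lower change (8.06%) in A. cahirinus. Against wild it differed for 975 of 13593 (7.17%), 382 higher (2.81%) and 593 lower (4.36%). Both comparisons use the same A. cahirinus libraries. Without the animal block 285 and 0 genes passed (700 at an unadjusted p under 0.05 in the latter), and without A. cahirinus replicate 3 or replicate 4 the wild comparison gave 575 and 573.

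Cell division genes fell more in the A. cahirinus cultures. Those cultures also expressed Pax7, Myf5, Myod1 and Myog, which were at or near 0 in the mouse cultures. Division before radiation was not compared. The parts of species, cell content and division rate in the differences were not tested. Of the 100 mitosis genes, 97 had a lower change than in C56BL6 and 80 a lower change than in wild, and 0 a higher one. The median change of that list was 0.10 in C56BL6, -0.33 in wild and -1.46 in A. cahirinus. For replication the counts were 49 and 19 of 54, with medians of -0.01, -0.44 and -0.97. Over all shared genes 8.06% had a lower change than in C56BL6, and 4.36% a lower change than in wild. The log2 change of Fbxo5 was -0.33 ± 0.0957 in C56BL6 and -1.07 ± 0.206 in wild, against -2.55 in A. cahirinus, and both differences passed (-2.21, adjusted p = 7.32e-08, and -1.49, adjusted p = 0.00693). Rrm2 had changes of 0.12 ± 0.0801 and 0.16 ± 0.102 in the mice, and its differences were -2.24 (adjusted p = 1.57e-08) and -2.28 (adjusted p = 3.23e-06). Values for Lmnb1 were -0.08 in C56BL6 and -0.73 in wild (differences -1.61, adjusted p = 1.19e-07, and -0.96, adjusted p = 0.000604). For Gtse1, which fell in A. cahirinus, the change was 0.59 ± 0.0646 in C56BL6 and 0.52 ± 0.0806 in wild (differences -1.34, adjusted p = 1.7e-07, and -1.28, adjusted p = 6.38e-05).

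The p53 targets differed in both directions. Of the 23 feedback and arrest genes, 8 had a higher and 6 a lower change than in C56BL6, and 1 a higher and 6 a lower change than in wild. Over all shared genes the higher and lower shares were 8.7% and 8.06% against C56BL6, and 2.81% and 4.36% against wild. Changes of Mdm2 were 0.99 ± 0.0560 in C56BL6, 1.3 ± 0.150 in wild and 0.94 in A. cahirinus, and the differences did not pass (-0.05, adjusted p = 0.738, and -0.36, adjusted p = 0.349). Cdkn1a changed less in C56BL6 (0.49 ± 0.0792, difference 0.83 ± 0.112, adjusted p = 8.1e-05), while against wild (1.29 ± 0.163) the difference was 0.03 ± 0.226 (adjusted p = 0.982). The change of Lgals3bp was -0.07 in C56BL6 and 0.17 in wild, and its rise in A. cahirinus was larger than both (differences 2.06, adjusted p = 4.6e-07, and 1.83, adjusted p = 0.000107). Aen also rose more (differences 0.81 and 0.65, adjusted p = 7.03e-06 and 0.00187), and so did Rbl2 (0.65 and 0.58) and Il6 (1.58, adjusted p = 0.000275, and 1.20, adjusted p = 0.0051). Within the mice the Il6 change was -0.51 in C56BL6 and -0.10 in wild. Collagens and matrix proteins had 22 higher and 4 lower changes of 46 against C56BL6, and 13 higher and 3 lower against wild.

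**Figure D5:**
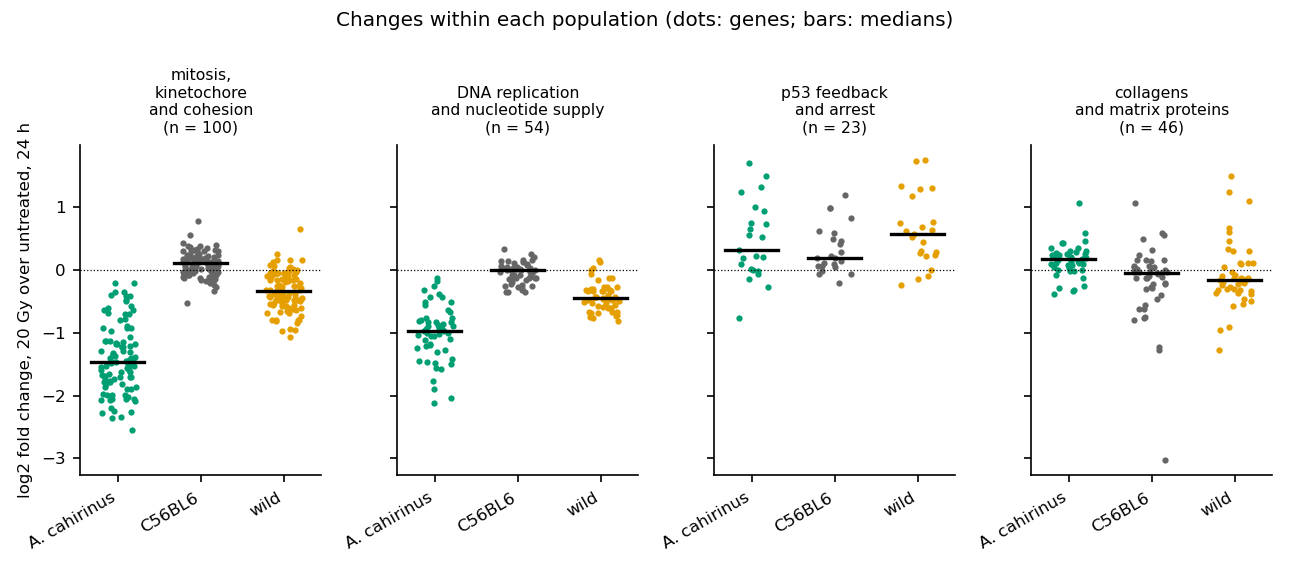
Log2 fold change 24 h after 20 Gy (vertical axis) in A. cahirinus, C56BL6 and wild cultures for 4 gene lists, 1 point per gene and a bar at each median. The medians of the mitosis list are -1.46, 0.10 and -0.33, and those of p53 feedback and arrest 0.33, 0.19 and 0.58.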

How the data were processed

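Counts per gene were deposited by the authors as 1 table per species. Per the file headers, featureCounts 2.0.3 counted read pairs by gene name on the AcoCah2 annotation for A. cahirinus, with no strand option, so overlapping and antisense genes cannot be separated. Per the submitters' processing notes Trim Galore, HISAT2 and featureCounts were used, and those notes name only the mouse build GRCm39. Per the labels, libraries were stranded mRNA libraries of batch B1.

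Genes passing edgeR's filterByExpr were tested with edgeR 4.0.16 (R 4.3.3), TMM-scaled, with animal as a block. The pairing comes from animal codes in the library names. Deviations from group means correlated at 0.369 to 0.802 within numbers and at -0.629 to 0.189 between numbers. DESeq2 1.42.0, RLE scaling, no filter, no block, all 3 doses in one fit and leaving out each animal were alternatives. Replicate pairs differed beyond sampling noise (chi-square per degree of freedom 16.8 to 197 over 12 pairs). Of 56980 mouse identifiers 56236 matched a symbol, and interactions used 18109 symbols found once in each table. Fits were tested on simulated counts.

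Genes and lists were chosen with earlier results of these data known, and support nothing on their own. Named genes were the 15 largest rises and falls (at least 5 CPM, 1 direction in all 4 pairs), the top 2 each way per list, a panel of 10 and the top 3 each way per interaction. Further genes were named after their values were seen. Some items that these rules name are not reported here. The floor of 3 counts covers counting error only.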

Additional observations from a re-analysis of the deposited data

Results flagged for a closer look

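Single libraries stood apart from the other 3 of their group in 11 of 198 groups of 4 libraries checked over the named genes (Dixon's test at the 95% level). Chance alone gives about 1 in 20 groups. Of the 11, 8 were libraries of replicate 2, the animal with the lowest muscle and highest Dcn and Lum levels. Untreated replicate 2 was high in Ccl7 (9.32 CPM against 3.18 to 4.14), Ctsk (11.3 against 1.63 to 3.16), Insig1 (16.7 against 10.2 to 11) and Lum (273 against 35 to 45.5), and low in Mmp23 (6.08 against 12.3 to 12.8). After 20 Gy the same animal was high in Cdkn2a (48.2 CPM against 25.3 to 27.7), Cnn1 (279 against 210 to 217) and Lum (280 against 37.4 to 56.6). The other 3 were Dusp5 in replicate 4 after 20 Gy (27.6 CPM against 36.4 to 37.3), Mki67 in untreated replicate 3 (319 against 279 to 285) and Pgf in untreated replicate 1 (2.66 against 1.02 to 1.10).

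The largest differences in change between populations concerned genes at 0 or low in most mouse libraries, and for several of them 1 untreated mouse library stood higher than the other 3. Against C56BL6, the change in A. cahirinus was higher for Dsg2 (difference 3.66), Lum (3.24) and Ntrk3 (2.75), and lower for Aurkc (-4.57), Il21r (-4.13) and Chrm2 (-4.02). Dsg2 was 0.618 CPM in 1 untreated C56BL6 library and 0 in the other 3, and Aurkc, Il21r and Chrm2 were 0 in all 4 and at most 0.170 CPM after 20 Gy. Ntrk3 was 4.53 CPM in untreated C56BL6 replicate 3 and 0.157 to 0.526 CPM in the other 3, and Lum at most 0.433 CPM. Against wild, the change was higher for Il33 (2.58), Vgll2 (2.46) and Kank4 (1.89), and lower for Tmprss11f (-5.72) and Dync1i1 (-4.81). Il33 was 1.92 CPM in untreated wild replicate 4 and 0 to 0.395 CPM in the other 3, and Kank4 was 1.65 CPM in replicate 1 and 0.0307 to 0.281 CPM in the others. Vgll2 was at most 0.368 CPM. The part of these single libraries in the differences was not tested. Tmprss11f and Dync1i1 were 0 in all 4 untreated wild libraries and at most 0.655 CPM after 20 Gy. In A. cahirinus itself Dsg2, Lum, Ntrk3, Chrm2, Il33, Tmprss11f and Dync1i1 did not pass at 20 Gy.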

How the results depend on the processing

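Of the named genes, Dsg2 and Dync1i1, neither of them called, changed sign. Dsg2 (0.0199) was -0.000903 with all 3 doses in one fit and -0.0123, -0.00949, 0.121 and -0.0537 without replicates 1 to 4, and Dync1i1 (-0.00472) ranged from -0.0609 without replicate 3 to 0.0774 without replicate 1. DESeq2 and the fit without replicate 4 gave no value for Apobec1. In these alternatives 0 of the 3170 genes were called the opposite way. RLE scaling gave 3103 genes at 20 Gy against untreated, no expression filter 3232, DESeq2 2895 and all 3 doses in one fit 4496. Without the replicate block the counts were 472 at 20 Gy, 488 at 10 Gy (against 3615), 0 for 20 Gy against 10 Gy (against 40), 285 for the difference from C56BL6 (against 2277) and 0 for that from wild (against 975). That fit also moved the share of higher calls from 55.1% to 24.8% (49.4%, 46.9% and 43.4% without replicates 2, 3 and 4), and 41 of 100 named genes lost their call, as did 8 without replicate 3, 8 without replicate 4, 1 without replicate 1 and 1 in DESeq2. Leaving out 1 animal gave 1316 to 3925 genes at 20 Gy, 1985 to 4742 at 10 Gy, 6 to 66 for the dose difference, 1545 to 2593 for C56BL6 and 573 to 838 for wild. The dose difference held 92 genes with no filter and 0 with all 3 doses in one fit. Of 42 counts over lists, 30 moved by more than 1.5 times without the block, 15 without replicate 3, 14 without replicate 4, 4 without replicate 2, 2 without replicate 1, 3 in DESeq2, 2 with no filter and 6 with all 3 doses in one fit. Each fit without 1 animal holds fewer samples. At 20 Gy such fits gave 3507 and 3925 genes without replicates 1 and 2, and 1356 and 1316 without replicates 3 and 4. The cause of these shifts was not tested. Depth limits genes near 0.105 CPM, such as Apobec1.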

Other observations

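Genes of skeletal muscle were abundant in the A. cahirinus cultures and are described here from a list of 26 chosen after marker values were seen, so the counts are a description. Of the 25 tested, 15 rose and 0 fell after 20 Gy, with a median log2 fold change of 0.24, beside 13.3% higher and 10.8% lower over all genes. The rises numbered 3 without replicate 3, 6 without replicate 4 and 0 without the block, in alternatives chosen after seeing the data. Myh3, the embryonic myosin heavy chain, ranged over the 4 animals from 309 to 1358 CPM untreated and from 371 to 1737 CPM irradiated (0.24). Acta1, the skeletal muscle actin, ranged from 547 to 1073 CPM and from 768 to 1234 CPM (0.29). Neither Myh3 (adjusted p = 0.17 and 0.102) nor Acta1 (0.127 and 0.175) passed without replicate 3 or replicate 4. Sgca, a sarcoglycan of the muscle membrane, rose most, from 20.4 to 46.9 CPM to 38.7 to 78.2 CPM (0.83), and Chrnd, a subunit of the muscle acetylcholine receptor, rose by 0.47. Ckm, the creatine kinase of mature muscle, was at most 0.353 CPM. Replicate 2 was lowest in 23 of the 25 genes untreated and in 21 after 20 Gy.

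Of the muscle factors, 1 passed. Myf5, an early factor of muscle precursors, fell in all 4 pairs, from 10.6 to 67.2 CPM untreated to 6.68 to 34.4 CPM after 20 Gy (-0.85 ± 0.0743, adjusted p = 3.06e-05). The groups overlapped, and Myf5 did not pass without the block (adjusted p = 0.531). Pax7, Myod1 and Myog did not pass (-0.02, 0.00 and 0.09).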
